A study of Mus musculus with 20 samples.

Results

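Peaks of 5-formylcytosine (5fC) in the hindbrain of wild-type (WT) mouse embryos were compared with those in WT heart, to describe where 5fC lies in each tissue when thymine DNA glycosylase (TDG) is present. The comparison used 6 of the 20 libraries of the series, chosen by their tissue and genotype labels, and autosomal peaks only. The 4 hindbrain libraries came from 4 WT embryos of litters A, O, Q and Z, and the 2 heart libraries from 2 WT embryos whose litter labels are pair_a (heart 1) and pair_b (heart 2). All embryos were collected at day E11.5 from intercrosses of mice heterozygous for a *Tdg* allele in which the sequence coding for the catalytic domain is replaced by a neomycin cassette, and no embryo of these groups received a treatment. A library came from 1 dissected tissue of 1 embryo, and tissue was confounded with litter because no litter label is shared by a hindbrain and a heart, so tissue and litter cannot be told apart. Regions found in the WT hindbrain or heart were looked up in 13 libraries that had no part in choosing them, from 4 hindbrains, 2 hearts, 1 liver and 2 carcasses of *Tdg* null embryos and 2 livers and 2 carcasses of WT embryos. The WT livers and carcasses came from the same 2 embryos as the WT hearts and are not independent of them.

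5fC is made when TET enzymes oxidise 5-methylcytosine, by way of 5-hydroxymethylcytosine. Where TDG is active 5fC builds up less, since the enzyme removes the oxidised base and repair restores a plain cytosine. A 5fC base can therefore be a step of active demethylation. The paper also describes 5fC as stable in embryos, proposes that it has a role of its own, and adds that replication may dilute it. Peak positions do not tell these apart. In the pull-down, the aldehyde of 5fC is tagged with biotin, captured on streptavidin beads and sequenced, and a peak is a stretch of DNA with more captured reads than its surroundings.

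The hindbrains gave 1515 (litter A), 8902 (O), 21063 (Q) and 1507 (Z) autosomal peaks, covering 0.904, 4.47, 11.6 and 0.856 Mb. The hearts gave 5881 and 5418 peaks, covering 2.95 and 2.89 Mb. The hindbrains of litters A and Z thus stood apart with few peaks, and the heart values lay inside the hindbrain range. A stretch of about 71 kb on chromosome 8 took 7.87% and 8.32% of the covered length of hindbrains A and Z. The peak files used here hold positions only and do not give the sequencing depth behind each peak set, and fewer cells carrying 5fC cannot be told apart from less 5fC in each cell.

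No feature of peak composition differed between WT hindbrain and heart by more than the spread between libraries. The median GC content of a peak was 48.2% ± 0.76 (SD, n = 4) in hindbrain and 47.8% ± 2.2 (SD, n = 2) in heart, against 41.9% for the ungapped autosomes. The ratio of observed to expected CpG was 0.362 ± 0.011 in hindbrain and 0.343 ± 0.041 in heart, and 0.194 across the autosomes. Within gene bodies lay 51.2% ± 2.2 of hindbrain and 49.3% ± 4.9 of heart peak bases, and within exons 5.67% ± 0.31 and 6.78% ± 1.2. Peaks within 1 kb of a transcription start made up 3.59% ± 0.87 and 3.64% ± 0.46. The lowest two-sided exact permutation p among the 8 features compared was 0.267, for the exon share, every adjusted p was 1, and 4 libraries against 2 cannot give less than 0.133.

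By 1 of 3 measures both tissues had peak positions more alike within than between tissues on average, and by the count of overlapping peaks the hindbrains alone did. By overlap relative to an even spread the hindbrains did, and the place of the heart pair rested on hindbrains A and Z. Overlap was first measured as the Jaccard index, in which bases under peaks of both libraries are divided by bases under peaks of either. It ran from 0.0516 to 0.273 among the 6 hindbrain pairs, was 0.102 for the heart pair and ran from 0.0512 to 0.0830 among the 8 hindbrain with heart pairs. The library nearest to each of the 6 came from the same tissue, with hindbrain A nearest to Z and hindbrain O nearest to Q. The lowest hindbrain pairs lay inside the range of the pairs of different tissues. When peaks were counted instead, as a percentage of those in the library with fewer, the hindbrain pairs had 59.9% on average (31.1% to 75.8%), the heart pair 16.9% and the pairs of different tissues 20.1% (8.65% to 29.2%). By this count the heart pair was no more alike than the pairs of different tissues. Relative to peaks spread evenly over the autosomes, the mean overlap was 358-fold for the hindbrain pairs (140 to 1012, the highest for A with Z). It was 153-fold for the heart pair and 155-fold for the pairs of different tissues (50.4 to 265). Pairs of a heart with hindbrain A or Z gave 204 to 265, above the heart pair, and those with O or Q 50.4 to 86.5, below it. By this fold the place of the heart pair thus rested on the sparse hindbrains A and Z. The mean Jaccard index was 0.0698 higher for pairs of the same tissue than for pairs of different tissues, with a one-sided exact permutation p of 0.0667, the smallest that 15 assignments allow.

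**Figure D1:**
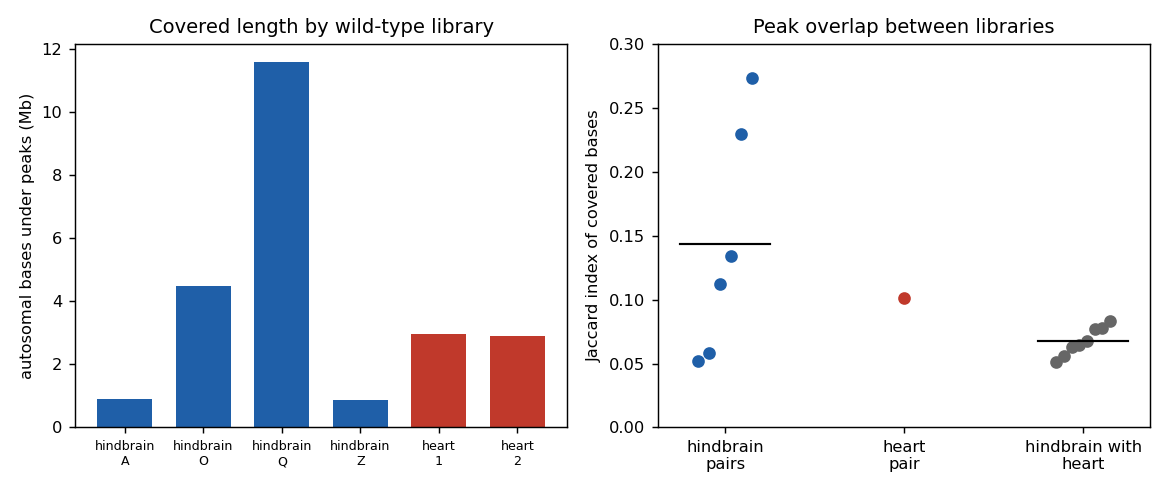
Left, autosomal bases under peaks in Mb for each WT library, where hindbrains A and Z cover less than 1 Mb. Right, Jaccard index of covered bases for each pair of libraries, with the mean as a line, where hindbrain pairs range from 0.0516 to 0.273 and pairs of different tissues from 0.0512 to 0.0830.

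Regions were then defined as stretches under peaks of at least 2 libraries of a tissue. Of these, 5220 were under peaks of at least 2 hindbrains and touched no heart peak (hindbrain-only regions, 2595.3 kb), 382 were under peaks of both hearts and touched no hindbrain peak (heart-only regions, 178.8 kb), and 1244 touched peaks of both tissues (shared regions, 902.8 kb). The counts of hindbrain-only and heart-only regions are not comparable as amounts, because 4 hindbrains offer more ways to reach 2 libraries and hindbrain Q covers more bases than the hearts together. Peaks of hindbrains Q and O touched 5116 and 4858 of the hindbrain-only regions, and those of A and Z touched 837 and 629. Only 150 hindbrain-only regions lay under peaks of all 4 hindbrains and 700 under peaks of 3. Without hindbrain Q, 953 hindbrain-only and 622 heart-only regions were found, and without hindbrain O 1203 hindbrain-only regions.

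Hindbrain-only and heart-only regions were both mainly distal. Their median length was 500 bp, and 2.82% and 3.40% lay within 1 kb of a transcription start. Exons held 9.58% of the hindbrain-only and 18.8% of the heart-only regions, and introns of protein-coding genes 39.4% and 33.5%. CpG numbered 2.25 and 2.40 per 100 bp at the median, and 2.29 in the shared regions.

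Hindbrain-only regions were spread over 1646 genes. Leaving aside 2 annotated records of more than 3 Mb, the gene bodies with the most were *Wwox* (17 regions, 10.3 kb), which encodes a WW domain oxidoreductase, and *Sox5* (14 regions, 6.8 kb), which encodes a SoxD factor of neural and cartilage development. *Prdm16*, a zinc finger regulator of neural progenitors and of brown fat, and *Tshz2*, a teashirt-family zinc finger gene, held 12 each, and *Odz4*, a teneurin of neuronal connectivity, held 11. *Auts2*, a nuclear regulator of neuronal genes, and *Agap1*, an Arf GTPase-activating protein of endosomal traffic, held 9 each. These are long genes, from 320.7 kb for *Prdm16* to 1106.0 kb for *Auts2*, and the order was not corrected for length. Of these 7 genes, *Tshz2* also held 1 heart-only region. The heart-only regions fell in 199 genes, with no more than 2 in any.

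Of the shared regions, 170 were touched by peaks of all 4 hindbrains and both hearts. The longest of these, 71.1 kb at chr8:19916701-19987800 over *Gm15319*, was also touched by peaks of 3 null hindbrains, and by none of the null hearts, WT livers or WT carcasses. No single peak of hindbrain Q or heart 2 spanned it, since their longest peaks were 50900 and 34400 bp. The next longest of the 170, 2.5 to 2.8 kb near *Zfp825*, *Vmn1r238*, *4931408C20Rik* and *4930467E23Rik*, had the same pattern, with 3 or 4 null hindbrains and none of the null hearts, livers or carcasses. Other shared stretches over 2.8 kb lay under fewer of the libraries, such as 50900 bp near *Drg1* (chr11:3049301-3100200, 2 hindbrains and 1 heart). The longest heart-only region, 1600 bp at chr10:80253901-80255500, overlapped an exon of *Dot1l*, the gene of the histone H3 lysine 79 methyltransferase, and held 77 CpG. It was covered in both null hearts and in 3 null hindbrains. The longest hindbrain-only region under all 4 hindbrains that also lay under all 4 null hindbrains was near *A230072I06Rik* (chr8:12327001-12328600, 40 CpG), and it was covered in both null hearts too. Longer ones, of 1700 to 2700 bp near *Speer4c*, *1700048O20Rik*, *Rbm43* and *Hephl1*, lay under 3 null hindbrains and no null heart. The last 3 held 3, 2 and 0 CpG, and runs of short repeated words made up much of the 200 bases read in each. Repeated sequence was also seen in heart-only regions in *4930534B04Rik* and near *Tubb2a*, and in the shared ones near *Zfp825* and *4931408C20Rik*.

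The following sequence shows what a hindbrain-only region looks like where the tissue pattern held in every hindbrain and heart library, WT and null. It was chosen after its values were seen, from the 31 regions under peaks of all 4 WT hindbrains and all 4 null hindbrains and of no WT or null heart. Both WT carcasses and no WT liver covered it. It is the central 300 bases on the plus strand of NCBIM37 (mm9), with CpG in capitals. The region is intergenic, 33.1 kb from the start of *Sox9*, an HMG-box gene of neural stem cells, neural crest and cartilage (chr11:112610101-112610700), and the window holds 9 CpG.
Sox9, chr11:112610250-112610549: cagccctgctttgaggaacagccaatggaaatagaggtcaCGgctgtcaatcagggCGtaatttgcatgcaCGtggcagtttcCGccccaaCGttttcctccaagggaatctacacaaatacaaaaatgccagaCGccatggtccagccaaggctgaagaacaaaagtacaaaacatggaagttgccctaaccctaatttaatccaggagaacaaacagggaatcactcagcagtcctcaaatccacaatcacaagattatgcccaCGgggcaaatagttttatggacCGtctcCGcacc

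The heart-only examples lie in introns of *Ltbp1*, which encodes a protein that binds latent TGF-beta (chr17:75433001-75433600), of *Nr3c2*, the mineralocorticoid receptor gene (chr8:79568701-79569200), and of *Rasl12*, a Ras-like GTPase gene (chr9:65252201-65252900). They are the central 300 bases of the regions, on the same strand, and were also chosen after their values were seen, to show the word that binds GATA factors, AGATAA, in heart-only regions. Capitals mark that word on either strand, and the windows hold 3, 2 and 1 of them. No null hindbrain covered any of the 3. The *Nr3c2* and *Rasl12* regions were covered in both null hearts and the *Ltbp1* region in 1. In the WT livers the *Ltbp1* and *Nr3c2* regions were covered in both and the *Rasl12* region in 1. In the WT carcasses the *Ltbp1* and *Rasl12* regions were covered in 1 each and the *Nr3c2* region in none.
Ltbp1, chr17:75433150-75433449: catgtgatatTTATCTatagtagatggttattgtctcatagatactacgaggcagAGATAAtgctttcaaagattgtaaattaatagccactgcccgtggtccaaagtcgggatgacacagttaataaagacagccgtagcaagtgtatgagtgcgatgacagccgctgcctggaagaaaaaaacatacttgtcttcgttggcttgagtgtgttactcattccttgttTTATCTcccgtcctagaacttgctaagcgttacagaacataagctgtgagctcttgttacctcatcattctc
Nr3c2, chr8:79568800-79569099: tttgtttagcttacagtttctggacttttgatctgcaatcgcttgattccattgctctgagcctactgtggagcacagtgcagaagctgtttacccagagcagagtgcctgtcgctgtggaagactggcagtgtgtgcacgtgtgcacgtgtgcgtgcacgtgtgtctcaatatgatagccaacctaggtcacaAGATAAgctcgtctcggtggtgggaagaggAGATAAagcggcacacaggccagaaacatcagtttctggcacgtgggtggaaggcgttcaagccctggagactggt
Rasl12, chr9:65252400-65252699: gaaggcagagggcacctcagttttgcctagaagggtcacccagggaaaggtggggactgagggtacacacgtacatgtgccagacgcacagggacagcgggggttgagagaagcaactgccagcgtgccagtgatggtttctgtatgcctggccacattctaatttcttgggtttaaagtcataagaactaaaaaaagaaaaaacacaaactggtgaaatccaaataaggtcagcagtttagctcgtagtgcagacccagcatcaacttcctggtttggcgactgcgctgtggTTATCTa

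Whether regions chosen on WT libraries keep their tissue in other embryos was asked of the *Tdg* null libraries, which had no part in the choice, although the null hindbrains came from the same 4 litters as the WT ones and the null hearts carry the same 2 litter labels as the WT hearts. The null hindbrains of litters A, O, Q and Z covered 80.0%, 88.4%, 91.6% and 93.3% of the bases of hindbrain-only regions and 24.8%, 20.1%, 28.6% and 27.2% of those of heart-only regions. The null hearts covered 61.0% and 34.9% of hindbrain-only bases and 86.8% and 64.0% of heart-only bases. Each of the 4 null hindbrains thus favoured hindbrain-only regions and each of the 2 null hearts favoured heart-only regions, with no overlap between the tissues. The log2 ratio of the covered shares, hindbrain-only over heart-only, was 1.82 ± 0.21 (SD, n = 4) in null hindbrain and -0.69 ± 0.26 (SD, n = 2) in null heart. The difference of 2.51 had a two-sided exact permutation p of 0.133, the smallest that 4 against 2 allow.

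The separation was not complete. Of the hindbrain-only regions, 4084 (78.2%) lay under peaks of all 4 null hindbrains, but 1270 (24.3%) did so while touching no null heart peak, and 1592 (30.5%) touched peaks of all 6 null libraries. Of the heart-only regions, 238 (62.3%) lay under peaks of both null hearts, 114 (29.8%) did so while touching no null hindbrain peak, and 52 (13.6%) touched peaks of all 6. No null hindbrain or heart peak touched 187 hindbrain-only and 49 heart-only regions. The null libraries cover far more of the autosomes, from 2.84% to 8.59%, than the WT libraries.

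The other WT tissues were not neutral between the sets. The WT livers covered 49.7% and 16.3% of heart-only bases but 7.42% and 1.55% of hindbrain-only bases, although they cover only 0.328% and 0.0358% of the autosomes, giving log2 ratios of -2.74 and -3.40. At least 1 WT liver touched 194 heart-only regions (50.8%) and 520 hindbrain-only regions (9.96%). At least 1 WT carcass touched 183 heart-only regions (47.9%) and 2800 hindbrain-only regions (53.6%). The WT carcasses covered 43.7% and 41.1% of hindbrain-only and 38.3% and 33.3% of heart-only bases, with log2 ratios of 0.19 and 0.31. The null liver also lay on the side of the hearts (log2 ratio -0.65) and the null carcasses on the side of the hindbrains (1.79 and 1.13). The null carcasses covered 83.5% and 87.3% of hindbrain-only bases, within the range of the null hindbrains, so these regions are not particular to hindbrain. Heart, liver and carcass of a litter share their embryo, so a likeness of tissue and a likeness of embryo cannot be told apart for the WT livers.

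**Figure D2:**
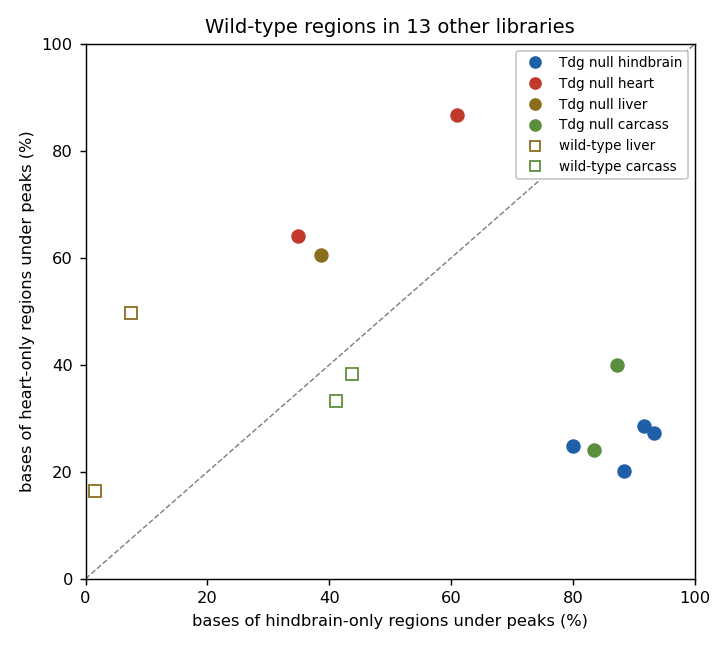
Bases of hindbrain-only (x axis, %) and of heart-only regions (y axis, %) under peaks of 13 libraries that did not choose them, with the line of equal shares dashed. The 4 null hindbrains lie below the line, at 80.0% to 93.3% on the x axis. Both null carcasses (83.5% and 87.3%) and both WT carcasses (43.7% and 41.1%) lie below it too. The 2 null hearts, the null liver and both WT livers lie above it.

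The letters under the peaks, which the choice of regions did not use, were then compared. In all, 8 words of factors known in either tissue were counted in the central 300 bases of regions and peaks, on both strands. AGATAA, which is bound by GATA factors such as the cardiac GATA4 and the blood factor GATA1, was present in 110 of 382 heart-only regions (28.8%), 669 of 5220 hindbrain-only regions (12.8%) and 152 of 1244 shared regions (12.2%). In windows of the same length placed every 100 kb along the autosomes its share was 19.1%, and 15.7% of all peaks of the 6 libraries held it. So this word was more frequent than in the genome only in the heart-only set, and less frequent in the others. The genome windows were not matched for base content. Median GC was 50% in heart-only, 48% in hindbrain-only and 49.2% in shared regions, against 41.9% for the autosomes. The part of base content in these shares was not tested. Among the 114 heart-only regions under both null hearts and no null hindbrain, 41 (36.0%) held it, and of the 188 heart-only regions that no WT liver touched 46 (24.5%) did, against 64 (33.0%) of the 194 that a WT liver touched. The share was 20.2% in the 183 heart-only regions that a WT carcass touched and 8.16% (4 of 49) in those that no null hindbrain or heart touched.

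Library by library, AGATAA was in 11.1%, 12.7%, 13.9% and 11.5% of the peaks of hindbrains A, O, Q and Z and in 22.2% and 22.8% of the peaks of the hearts. The lower heart lay above the highest hindbrain. The mean was 10.2 percentage points lower in hindbrain (two-sided exact permutation p = 0.133, the smallest possible, and 0.356 after Benjamini-Hochberg adjustment over the 8 words). In the null libraries the shares were 14.2% to 15.3% in hindbrain and 26.4% and 25.4% in heart, a mean 11.1 percentage points lower in hindbrain (exact permutation p = 0.133, adjusted 0.152). The WT livers had 33.5% and 35.2% and the WT carcasses 14.4% and 13.8%. As a check on other cells, 4 defining blood markers, among them *Hba-a1*, *Klf1* and *Ptprc*, and 4 hepatocyte markers (*Alb*, *Afp*, *Apoa1*, *Hnf4a*) held no peak base in either heart. In the longer lists, 1 and 2 of 13 blood cell genes held a peak in hearts 1 and 2, with summed values of 238 and 968 peak bases per Mb covered against 0 to 515 in the hindbrains. Of 14 hepatocyte genes 1 held a peak in heart 1 (67.9) and none in heart 2, against 0 to 138 in the hindbrains. Their gene bodies report where 5fC lies and not how many such cells were present, and the part of other cells in the shares was not tested.

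**Figure D3:**
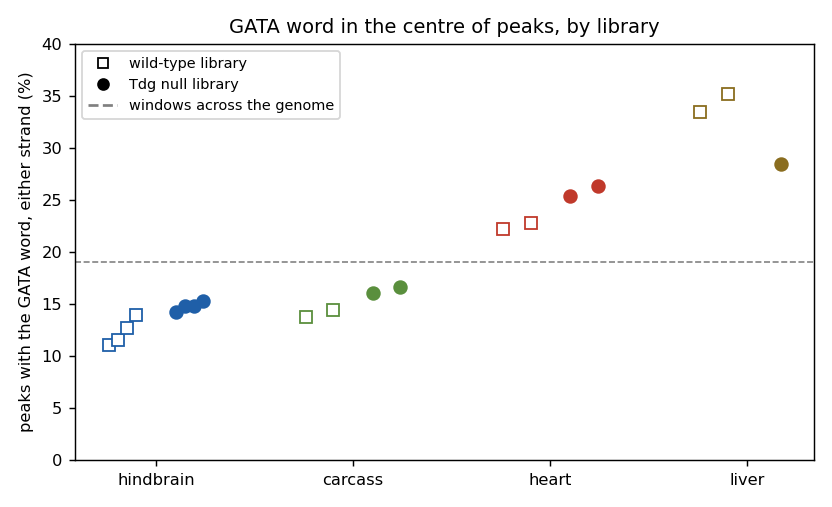
Share of peaks (y axis, %) whose central 300 bases hold the GATA word on either strand, for each WT library (open squares) and *Tdg* null library (filled circles) of the 4 tissues. WT hindbrains sit at 11.1% to 13.9% and WT hearts at 22.2% and 22.8%, on either side of the genome-wide 19.1% (dashed).

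Of the other words, AGGTGTG, read by T-box factors such as TBX5 and TBX20, was in 3.64% of WT hindbrain and 5.65% of WT heart peaks on average. A form of the MEF2 site was in 2.79% and 3.78%. The regions did not have that order for MEF2, with 2.09% of heart-only, 2.68% of hindbrain-only and 5.27% of genome windows, and AGGTGTG was in 4.97%, 3.18% and 6.18%. Both words were rarer in these regions than in the genome windows, which were not matched for base content. For both words the WT libraries of the tissues did not overlap, with an exact permutation p of 0.133 (adjusted 0.356). AACAATG, the core read by SOX factors, was in 6.88% and 4.93%, and the libraries overlapped (exact permutation p = 0.267, adjusted 0.533). It was in 8.81% of hindbrain-only regions, 4.97% of heart-only regions and 5.94% of genome windows. TNAAGTG for NKX2 factors, TGACAG for MEIS factors, TGATTNAT for HOX factors with their partners, and the proneural E-box CAGCTG differed by -1.42 to 1.95 percentage points, hindbrain minus heart, with exact permutation p-values of 0.400 to 0.667. In hindbrain-only regions, heart-only regions and genome windows, TGACAG was in 31.3%, 25.9% and 19.2%, and CAGCTG in 24.3%, 20.7% and 11.1%. TNAAGTG was in 15.6%, 13.9% and 16.3%, and TGATTNAT in 5.96%, 3.66% and 5.45%. In the null libraries, hindbrain and heart did not overlap for any of these words except TGACAG. A match is a description of letters and not a bound site.

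Gene bodies were compared by their peak bases per Mb of covered length, on a log2 scale with 100 added, over the 3522 autosomal genes with peak bases in at least 2 of the 6 libraries. No gene passed an adjusted p of 0.05 in the limma fit in either direction (0%, smallest adjusted p 0.167). At an unadjusted p under 0.05, 52 genes were higher in hindbrain (1.48%) and 282 in heart (8.01%). Genes whose libraries did not overlap numbered 90 with every hindbrain above both hearts (2.56%) and 369 with both hearts above every hindbrain (10.5%). Their median lengths were 182.1 and 92.9 kb, against 95.6 kb for all genes tested, and values were not divided by gene length. Only 17.7% and 17.9% of the tested genes had any peak base in hindbrains A and Z, and 2536 had none in both. Among the 369 genes higher in the hearts, 360 were at 0 in A and Z and 126 in all 4 hindbrains, so that these 126 passed the filter only through the hearts, and with A and Z left out 1335 genes lay higher in hindbrain and 485 higher in heart. Without scaling to the covered length, 69 genes lay higher in every hindbrain, 53 of them among the 90. The 2 counts are therefore not comparable as amounts of 5fC. Fitted differences below are log2 hindbrain minus heart ± SE, and none passed the adjusted threshold (limma adjusted p of 0.167 to 0.478 for the genes named in the next paragraphs).

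Named next are protein-coding genes chosen for having every hindbrain above both hearts and the largest differences among such genes, so the order itself is no result. *Agap1*, which encodes a GTPase-activating protein of ARF GTPases, had 1328, 1701, 1209 and 1402 peak bases per Mb covered in the hindbrains and 0 and 415 in the hearts (2.72 ± 0.88, with 1.54 without heart 1 and 3.91 without heart 2). The lowest hindbrain lay more than 2-fold above the higher heart. *Fto*, which encodes a demethylase of RNA, had 775, 1231, 985 and 467 in the hindbrains and 0 and 173 in the hearts (2.48 ± 0.79). *Klhl29* had 775, 806, 389 and 351 in the hindbrains and no peak in either heart (2.69 ± 0.66).

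*Smoc1*, a secreted matrix protein gene, *Ctdsp1*, a phosphatase gene that restrains neuronal genes, *Foxp4*, a forkhead factor gene, *Mepe*, *Gpr180* and *D430041D05Rik* likewise held peaks in all 4 hindbrains and none in the hearts, with differences of 2.45 to 2.77. In *Foxp4* the values were 885, 179, 216 and 935 in hindbrains A, O, Q and Z, so the sparse hindbrains were the highest. Hindbrains A and Z were also the 2 highest in most of these genes, 9 of the 12 chosen, and a single peak gives a high value in libraries that cover so little. *Csrnp3* (2.55 ± 0.73) had 67.9 in heart 1 and 0 in heart 2. *Tcte2*, in the t-complex region of chromosome 17, was high in the hindbrains (1287 to 5025) and had 0 and 1176 in the hearts (2.94 ± 1.19, with 1.10 without heart 1 and 4.78 without heart 2).

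The 12 genes toward heart were chosen in the same way, for both hearts above every hindbrain. *Dot1l* had 611 and 622 peak bases per Mb covered in the hearts and none in any hindbrain (-2.84 ± 0.46). *Tgfbr2*, the type II TGF-beta receptor gene, had 373 and 588 in the hearts and none in any hindbrain (-2.51 ± 0.46). *Ltbp1* had 577 and 622 in the hearts and 0, 67.1, 155 and 0 in the hindbrains (-2.28 ± 0.63). All 3 were also at 0 in hindbrains A and Z, where a gene of this level could be missed.

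*Zfpm1*, the gene of the GATA cofactor FOG1 (chr8:124806039-124861146), had 645 and 519 in the hearts and 0, 0, 130 and 0 in the hindbrains (-2.46 ± 0.60, limma adjusted p = 0.167). It had 420 and 3856 in the WT livers and no peak in either WT carcass. *Tbxas1*, thromboxane synthase, had 713 and 657 in the hearts and at most 112 in a hindbrain, and 763 and 2454 in the livers. *Phc2*, a Polycomb gene, had 331 and 1519 in the livers, and *Arid3a*, an AT-rich interaction domain factor gene, had 178 and 1519. The second liver covers as little as hindbrain Z, and a single peak gives a high value there too. *Pxn*, which encodes the focal adhesion protein paxillin, had 238 and 899 in the hearts and 121 in hindbrain Q only (-2.25 ± 0.67, with -3.03 without heart 1 and -1.47 without heart 2). *Tmem110* and *Cep164*, a centriole appendage gene, had no peak in a hindbrain, and *Galk2* and *Sh3bp4* had low values in hindbrain O or Q only.

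**Figure D4:**
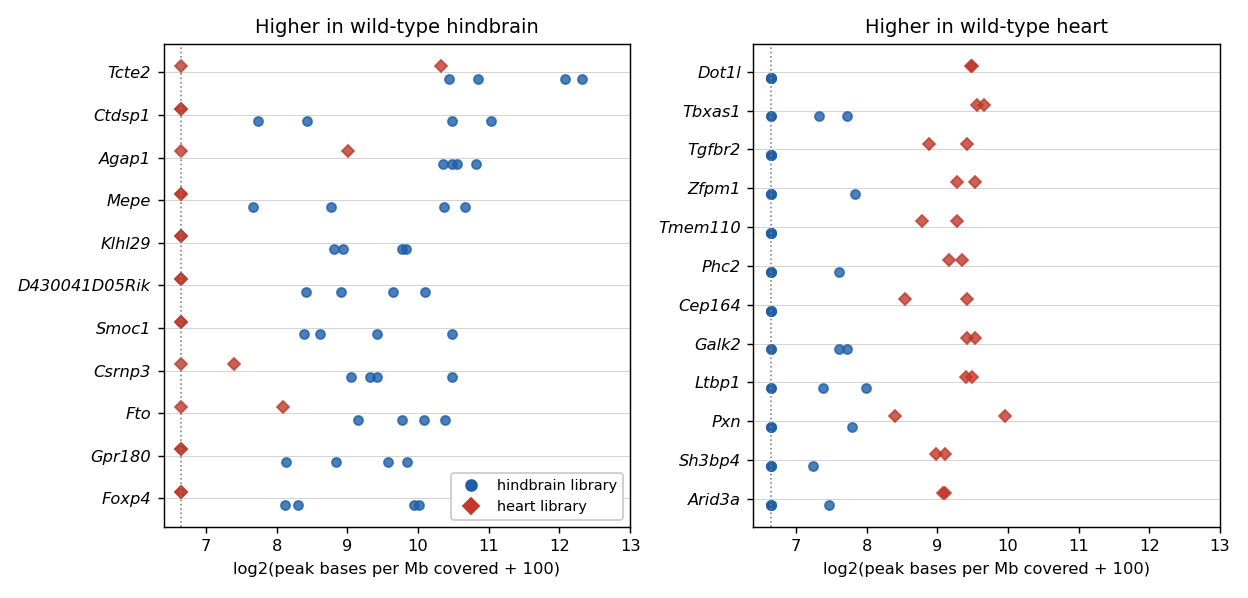
log2(peak bases per Mb covered + 100) in each WT hindbrain (circles) and heart (diamonds) for protein-coding genes with the largest non-overlapping difference in each direction, 11 toward hindbrain and 12 toward heart, where the dotted line is a gene with no peak. The choice of genes puts all hindbrains on one side of both hearts, and in the heart panel hindbrains A and Z are on the dotted line.

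The same genes were then read in the null libraries. Over all 17739 genes tested there, 2075 (11.7%) were higher in null hindbrain and 4535 (25.6%) higher in null heart at a limma adjusted p under 0.05, and among the 3473 genes tested in both genotypes 665 (19.1%) and 905 (26.1%). Of the 364 genes higher in both WT hearts that were tested, 149 (40.9%) were higher in null heart and 23 (6.32%) higher in null hindbrain. Of the 90 genes higher in all WT hindbrains, 22 (24.4%) were higher in null hindbrain and 17 (18.9%) higher in null heart. Among them, 40 were at 0 in both hearts, of which 7 (17.5%) and 5 (12.5%) were higher in null hindbrain and heart, and 15 and 12 of the other 50. With the genes at 0 in all 4 hindbrains set apart, 101 of the other 241 heart genes (41.9%) were higher in null heart and 18 (7.47%) higher in null hindbrain, and among the 123 genes at 0 these were 48 (39.0%) and 5 (4.07%).

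By gene, *Zfpm1* differed by -1.03 ± 0.18 in the null libraries (limma adjusted p = 0.00626), *Sh3bp4* by -0.94 ± 0.10 (0.0020) and *Tbxas1* by -0.58 ± 0.08 (0.0029), each higher in null heart as in WT heart. *Tgfbr2* differed by 0.15 ± 0.09 (limma adjusted p = 0.243) and *Phc2* by 0.06 ± 0.16 (0.798), without passing the threshold. Among the hindbrain genes *Csrnp3* (0.45 ± 0.12, limma adjusted p = 0.0269) and *Smoc1* (0.34 ± 0.08, 0.0165) were higher in null hindbrain. *Fto* (-0.35 ± 0.11, limma adjusted p = 0.0356) and *Tcte2* (-0.32 ± 0.07, 0.0123) had the opposite order and were higher in null heart. Of the 12 genes chosen in each direction, 2 were higher in null hindbrain and 3 in null heart on the hindbrain side, and 8 in null heart and 0 in null hindbrain on the heart side.

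Gene lists of the tissues were sparse in the WT peaks. Of 35 hindbrain patterning factors, 10 held a peak in any of the 6 libraries and 8 were tested. None of the listed HOX genes, nor *Egr2* or *En2*, held a WT hindbrain or heart peak. *Egr2* and *En2* are short, 6.71 and 7.92 kb, and a short gene body offers less room for a peak. Of the 8, 2 had all hindbrains above both hearts and none the reverse, where 2.56% and 10.5% of all genes tested did, and so few genes allow no statement on the list. The median difference was 0.39 against 0.04 for all genes tested, 0.24 to 1.01 when 1 library was left out, and from 0.06 with a pseudocount of 1000 to 1.5 with one of 10. Among these 2 was *Meis2*, a homeobox gene of hindbrain development, which had 443, 604, 190 and 584 in the hindbrains and no peak in the hearts (2.39 ± 0.65). In the null libraries *Meis2* differed by -0.19 ± 0.08 (limma adjusted p = 0.114). Of 10 tested neural progenitor and neuron factors, 2 had every hindbrain above both hearts and none the reverse, beside the same 2.56% and 10.5%. These were *Auts2* (1410 to 1987 against 441 and 934) and *Nfia*, a nuclear factor I gene of glial and neuronal differentiation (553 to 1285 against 475 and 484). *Nfia* differed by 0.55 ± 0.74 (limma adjusted p = 0.671) and was higher in null heart (-0.32 ± 0.08, limma adjusted p = 0.0184). *Auts2* was higher in null hindbrain (0.34 ± 0.07, limma adjusted p = 0.00848). The list median of 0.35 turned to -0.33 without hindbrain O and -0.28 without Q.

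Genes of axon guidance and neuronal adhesion were mostly tested, and their counts without overlap can be read against the same 2.56% and 10.5%. Of 25 tested axon guidance genes, 1 lay higher in every hindbrain and 1 higher in both hearts. Their median of 0.10 ran from -0.20 to 0.66 when 1 library was left out, below 0 without heart 1 (-0.13), hindbrain O (-0.15) or Q (-0.20). The hindbrain gene was *Ntn1*, the netrin gene, with 553, 269, 328 and 234 in the hindbrains and no peak in the hearts. The other was *Sema3c*, a secreted semaphorin gene also known in the cardiac outflow tract, with 136 and 69.2 in the hearts and 34.6 in hindbrain Q only (-0.89). Of 18 tested neuronal adhesion genes, *Cdh4*, the R-cadherin gene, lay higher in every hindbrain (553 to 935 against 238 and 242) and *Ctnnd2*, the delta-catenin gene, higher in both hearts (407 and 450 against 0 to 259), with a median of 0.16 (-0.13 without hindbrain O and -0.05 without Q).

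Of the heart lists, 7 of 26 cardiac transcription factors were tested, with none higher in every hindbrain and 2 higher in both hearts, beside 2.56% and 10.5% of all genes tested. The median of -0.22 was 0.04 without hindbrain A or without Z and 0.43 without both, but -0.87 without hindbrain Q and -1.24 with a pseudocount of 10. The 2 were *Zfpm1* and *Tbx5*, a T-box gene of the forming heart, with 170 and 277 in the hearts and 0, 134, 60.5 and 0 in the hindbrains. *Prdm16*, on this list for its part in the heart, instead had 584 to 2037 in the hindbrains and 271 and 899 in the hearts. *Gata4* was not tested, since its 69.1 in hindbrain Q was its only value above 0. Of 7 tested sarcomere genes, *Myom1*, the myomesin gene, lay higher in both hearts (238 and 311 against 0 to 179), and the median of 0.31 turned to -0.57 without heart 2, -0.24 without hindbrain Q and -0.51 with peaks of at least 600 bp. None of 10 tested calcium and channel genes was free of overlap (median -0.47, and 0.05 without hindbrains A and Z), and *Slc8a1*, the sodium-calcium exchanger gene, had 577 and 415 in the hearts and 0 to 443 in the hindbrains. Of 10 tested endothelial and endocardial genes, *Flt1*, a VEGF receptor gene, lay higher in both hearts (577 and 553 against 0 to 242). By fitted difference 5 of the 10 were toward hindbrain and 5 toward heart. Their median of -0.14 ran from -0.94 to 0.48 when 1 library was left out, and was 0.42 without hindbrains A and Z.

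In the null libraries, where more members could be tested, the shares of all genes called were 11.7% higher in hindbrain and 25.6% higher in heart. Of the heart lists, 19 of 23 cardiac transcription factors, 21 of 28 sarcomere genes, 13 of 16 calcium and channel genes and 7 of 14 endothelial genes were higher in heart, and 0, 2, 0 and 1 higher in hindbrain. *Gata4* was among the genes higher in heart (-1.51, limma adjusted p = 0.00182). Of the neural lists, 18 of 20 neuronal adhesion genes, 13 of 28 axon guidance genes, 6 of 13 hindbrain patterning factors and 4 of 17 neural progenitor and neuron factors were higher in hindbrain, and 1, 3, 2 and 4 higher in heart. Of the other lists, 1 of 13 epicardial, 1 of 9 blood, 1 of 10 hepatocyte and 2 of 16 cytosine modification genes were higher in hindbrain, and 3, 0, 2 and 3 higher in heart. Epicardial, blood and hepatocyte lists had 1, 2 and 0 genes tested in WT. Of 4 tested genes of cytosine modification none was free of overlap, and *Tdg* itself held no peak in any WT hindbrain or heart.

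Peaks on DNA do not report transcripts, so the tissue labels could not be checked by expression. Of 8 defining hindbrain markers, 2 held a peak in a hindbrain and none in a heart, with summed values of 0 to 69.1 peak bases per Mb covered. Of 8 cardiomyocyte markers, 2 held a peak in a heart and 3 in a hindbrain, with summed values of 170 and 536 in the hearts and 0 to 181 in the hindbrains.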

How the data were processed

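5fC was profiled by pull-down and sequencing in dissected tissues of WT and *Tdg* null E11.5 embryos. The submitters' processing notes name Trim Galore, Bowtie2 and MACS with NCBIM37 (mm9), and the authors called peaks library by library, with fragments taken as 200 bp long and a p-value of 1e-05 as the cutoff. The deposited peak files used here hold positions in bases, on a grid of 100 bp, with no other value such as a count, height or score, and the reads were not used here. The replicates were not pooled, and the use of an input or the removal of duplicates is not given in the sources used here. A peak therefore shows presence above a threshold that moves with depth and enrichment.

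The samples were grouped by their labels, and peaks on the 19 autosomes were kept. Gene bodies were those of GENCODE for NCBIM37, with the longest record of each symbol (31492 genes). Composition and words were read from the NCBIM37 sequence, and the share in repeats was not computed because that sequence does not mark them. Peak bases per gene were divided by the covered Mb of the library and tested as log2(value + 100) with limma 3.58.1 (lmFit, eBayes with trend) in R 4.3.3, with Benjamini-Hochberg adjustment over all genes tested. Library values were compared by exact permutation over the 15 assignments of tissues, in Python 3.11.15 (scipy 1.17.1, numpy 2.4.6, pandas 2.3.3), and plots were made in matplotlib 3.10.9. The *Tdg* null liver that the study set aside was left out. On simulated data, of 200 genes changed 16-fold all had the right direction and 85 passed the adjusted threshold. Of 178 tested genes changed 4-fold, 89.9% had the right direction and 3 passed. These simulated runs tested 2425 and 2392 genes, against 3522 in the WT libraries. Whether the simulated libraries vary as much as the real ones was not tested. The shares are therefore no detection rates for the WT comparison.

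The genes named are the 12 protein-coding genes with the largest non-overlapping difference in each direction, members of 12 gene lists with the largest difference toward their tissue or with no overlap between tissues, *Gata4* and *Tdg*, and genes holding the most or the longest regions. Some items that these rules choose are not reported here. The members and lists were chosen with earlier results of these data known. The *Tdg* null gene fit, the words by library, the sequences shown and the settings without hindbrains A and Z or without peaks over 5 kb were added after the data were seen. The alternatives were other pseudocounts, filters, scalings and gene bounds, peaks of at least 600 bp, merged and thinned peaks, all chromosomes, other overlap rules, and each library left out.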

Additional observations from a re-analysis of the deposited data

Results flagged for a closer look

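In *Csrnp3* the hindbrain of litter A held 1328 peak bases per Mb covered, while the hindbrains of litters O, Q and Z held 537, 432 and 584, and its gap to the nearest was large for the range of the 4 values (0.830 of it, just past Dixon's 95% critical value). It was the only one of 49 groups of hindbrain values tested that was set apart in this way, and chance sets apart about 5% of groups. Groups with peak bases in fewer than 2 hindbrains were not tested.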

How the results depend on the processing

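No paired analysis was possible because hindbrain and heart came from different embryos with different litter labels. Depth limits every value, since hindbrains A and Z hold few peaks and a gene or region without a peak there may lie under the caller's threshold. The counts of genes and regions moved most, and the cause was not tested unless given. With A and Z left out, 1015 genes were higher in hindbrain at an unadjusted p under 0.05 and 1335 without overlap, and the sign turned for log2 peak number (1.28), log2 covered Mb (1.30), median GC (-0.075), *Camk2d* (0.0032) and *Pdgfra* (0.51). With peaks of at least 600 bp, 1 gene was higher in hindbrain and 80 in heart at an adjusted p under 0.05, 24 and 149 at an unadjusted p under 0.05, and 33 and 178 without overlap, there were 1813 hindbrain-only, 164 heart-only and 488 shared regions, and the sign turned for the share of peaks within 1 kb of a start (0.31), for *Nfia* (-0.65) and for *Pdgfra* (0.76), with no difference in median length (0).

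Without scaling, 144 genes were higher in heart at an unadjusted p under 0.05 and 181 without overlap, and *Pdgfra* turned to 0.45. With 10 kb added on either side of the gene these were 482 and 587, and with peak bases in at least 3 libraries 102 and 243. A pseudocount of 1000 left 20 genes higher in hindbrain at an unadjusted p under 0.05. With at least 3 hindbrains required there were 850 hindbrain-only and 791 shared regions. Thinning to equal peak numbers turned log2 covered Mb to 0.070.

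When each library was left out in turn, genes at an adjusted p under 0.05 ranged from 0 to 6 toward hindbrain and from 0 to 185 toward heart, the highest being without hindbrain Q. Genes at an unadjusted p under 0.05 ranged from 7 to 100 toward hindbrain and from 137 to 320 toward heart, and genes without overlap from 97 to 240 and from 391 to 844. With each hindbrain left out, and no heart, hindbrain-only regions ranged from 953 to 5000, heart-only from 382 to 622 and shared from 566 to 1216. The library differences, hindbrain minus heart, ranged from -1.05 to 0.22 for log2 peak number, -0.95 to 0.30 for log2 covered Mb, -1.16 to 1.99 percentage points for median GC, -0.011 to 0.048 for the CpG ratio, 0 to 100 bp for median length, -1.61 to 5.38 points for bases in genes and -0.38 to 0.27 points for peaks near starts. *Pdgfra* ranged from -0.67 to 0.56, *Gja5* from -2.32 to 0.70 and *Nfatc1* from -2.54 to 0.62, each turning sign without 1 heart, and *Pdgfra* also without hindbrain A or without Z (0.13). The difference in Jaccard index kept its sign in all 11 settings tried (0.0414 to 0.106 on that index, and 0.337 when the peaks of the smaller library that overlap were counted instead). Its one-sided exact permutation p was 0.3 without hindbrain O, where 0.1 is the smallest possible, and 0.133 after thinning, so that the true tissues no longer gave the largest difference. The difference of null hindbrain and heart on the regions ranged from 1.71 to 2.70 in 15 settings.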
